A study of Canis lupus familiaris with 4 samples.

Results

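Type I interferon-stimulated genes were followed in cultured CD8+ T cells of healthy dogs that had been exposed to lymphoma exosomes or to PBS. The set is a list of 43 gene symbols, and its members are the rows of the deposited tables whose symbol is on the list. In all, 36 of the 43 symbols were found, on 35 rows of the 11691 genes present in both tables. The other 7 (IFIT1, IFI6, RSAD2, CMPK2, SAMD9, IRF7 and LGALS3BP) had no row under those symbols. Only 10464 of the 11691 genes carried a symbol, so a gene without one could not be matched by name. Each listed gene had at least 1 read in every library, so the tables give no level for a gene without reads. MX1 and MX2 shared 1 row, the row of IFIH1 also carried the channel gene KCNH7, and that of IRF9 also carried the ubiquitin ligase gene RNF31. Reads of the genes on such a row cannot be told apart, and the values of these 3 rows are uncertain.

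The cells came from blood mononuclear cells of 2 healthy mixed-breed dogs, a female (dog 1) and a male (dog 2). In all 4 libraries the cells had first been grown with IL-2 (2500 IU/mL) and 2-mercaptoethanol (50 µM) for 14 to 20 days, and purified CD8+ cells were then kept in the same medium. The exosome group (2 libraries) received exosomes, small vesicles shed by cells, from the canine line CLBL-1, which derives from a diffuse large B cell lymphoma. The series' text gives a dose of 50 µg/mL, whereas the treatment label lists 50, 100 and 200 µg/mL. The control group (2 libraries) received an equal amount of PBS. An exposure of 48 h is labelled for all libraries, but the columns of the table of dog 1 are headed 24 h and those of dog 2 48 h. Dog, sex and any difference in time cannot be told apart.

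Expression is given as the scaled read count deposited by the authors, the reads of a gene divided by 1 factor per library, so that a value of 1 stands for 9.42 to 12.7 reads. Depth over the shared genes was 9417298 to 12325953 reads per library. Scaled counts are not divided by gene length, so the value of a gene, or a median or sum over fixed rows, is compared only between libraries. All 8 rows of the T cell marker list (CD8A, CD8B, CD3D, CD3E, CD3G, CD2, TRAT1 and LCK) were present. Only CD8A and CD8B encode CD8 itself, and the others are not particular to CD8 cells. Summed values were 2283 and 1896 in the control and exosome library of dog 1 and 4038 and 3744 in those of dog 2. Of these 8 rows, 7 had a lower value with exosomes in both dogs, against 32.5% of all genes. The exception, CD8B, stood at 73.4 and 72.7 in dog 1 and at 479 and 528 in dog 2. The B cell marker MS4A1 stood at 3.62 to 10.7 in the 4 libraries, and CD68, the only detected member of 8 monocyte and macrophage markers, at 0.471 to 2.17.

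Type I interferons are cytokines that cells release when they sense viral nucleic acid. They bind the receptor chains IFNAR1 and IFNAR2, whose kinases JAK1 and TYK2 start a phosphorylation relay. It ends in a complex containing STAT2 and IRF9, which switches on a large set of genes for sensing, degrading or trapping virus. In T cells the same genes are known to respond to interferon made by neighbouring cells, and many also respond to interferon gamma, which CD8 T cells make themselves. No sequence of these genes is shown, since no sequence source was used here.

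Most interferon-stimulated genes had lower values with exosomes, by more in dog 1 than in dog 2, and none passed the test across both dogs. The median of the 35 rows stood at 38.5 with PBS and 25.4 with exosomes in dog 1, and at 51.5 and 49.8 in dog 2. Over all genes the medians in the same 4 libraries were 31.2, 29.98, 30.04 and 29.7. The exosome library of dog 1 held the lowest of the 4 values for 26 of 35 rows, against 30.6% of all genes.

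**Figure D1:**
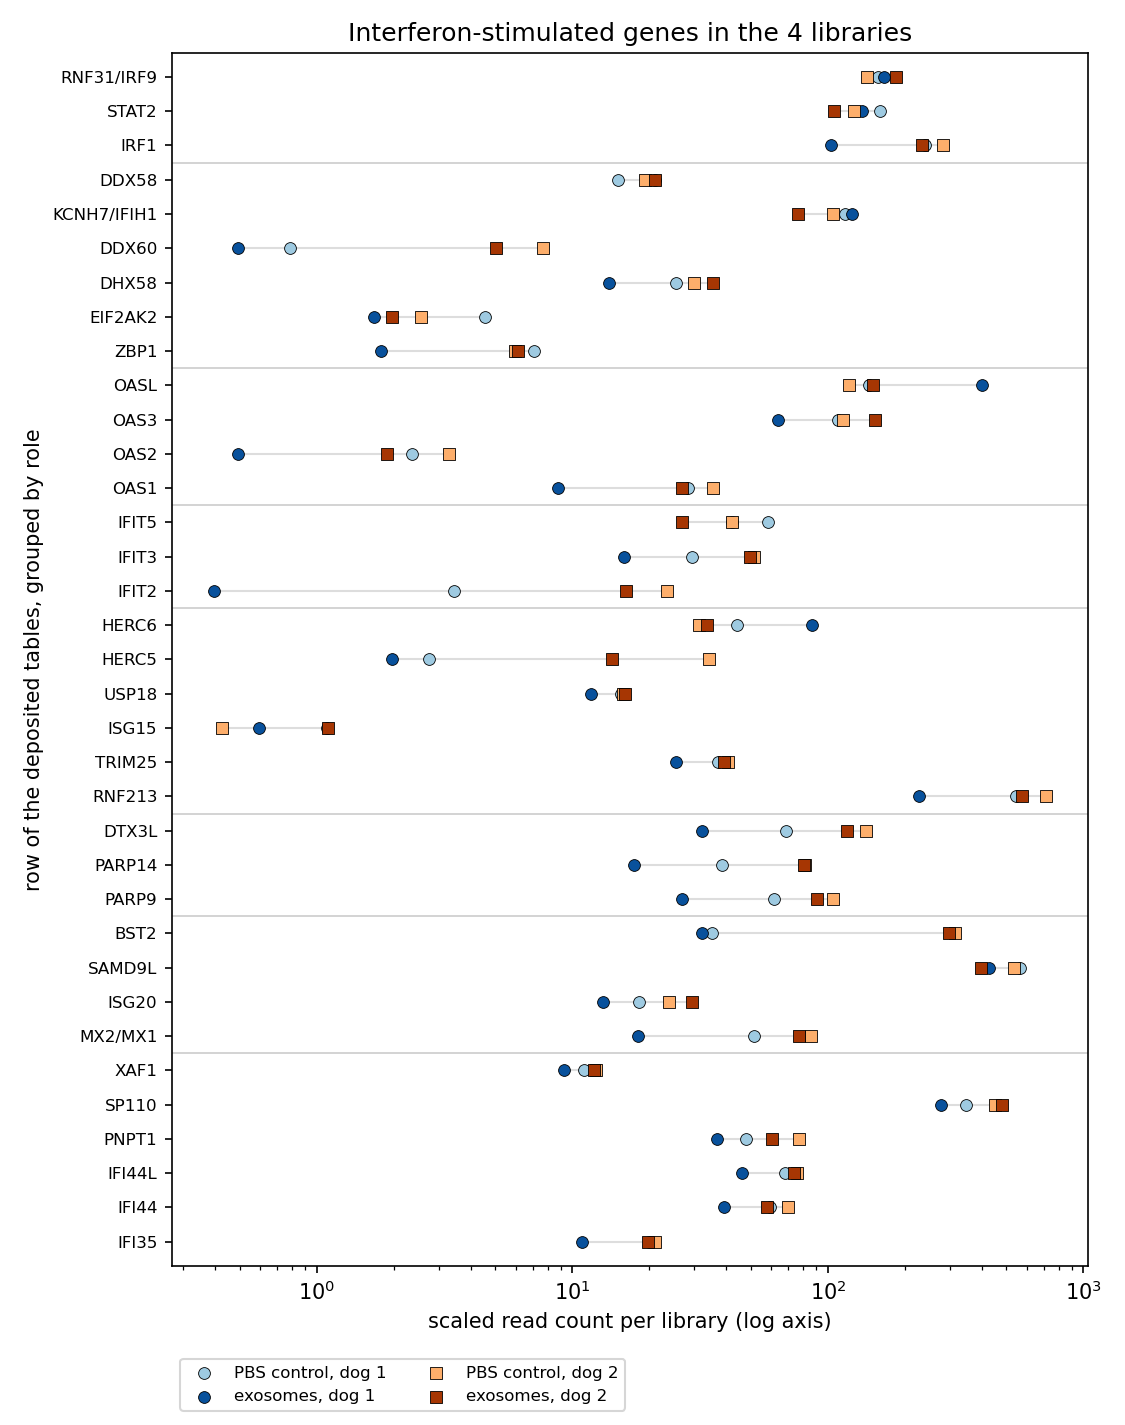
Scaled read count (log axis) of each of the 35 rows in each of the 4 libraries, 1 point per library, with rows grouped by the role of the gene. Dark blue circles, the exosome library of dog 1, lie lowest on 26 rows. OASL, HERC6, DDX58 and the row of IFIH1 have their highest point there. Points with nearly equal values cover each other.

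Within dog 1 the median log2 fold of exosome over control was -0.52 over the 35 rows and -0.02 over all genes. Within dog 2 it was -0.09 and -0.02. Folds within a dog compare 1 library with 1, on the log2(value + 1) scale, which understates the change of low genes. There were 30 rows with a lower value in dog 1 (all genes 51.8%) and 24 in dog 2 (52.9%). A lower value in both dogs was seen for 23 rows (32.5%), and a higher value in both for 4 (27.8%). The 4 were OASL, HERC6, DDX58 and the row of IRF9. Another 7 rows were lower in dog 1 and higher in dog 2, namely ZBP1, DHX58, USP18, OAS3, SP110, ISG20 and ISG15.

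Large differences were nearly all in dog 1. There, 11 rows were at least 2-fold lower with exosomes (7.79% of all genes), and 1, OASL, was at least 2-fold higher (4.13%). In dog 2 the only row at least 2-fold lower was HERC5 (3.28% of all genes), and the only one at least 2-fold higher was ISG15 (3.18%), which rests on 4 and 14 reads. In the authors' deposited table of dog 1, 10 rows were past the authors' filter (1.5-fold and an unadjusted p under 0.05) as lower and 2 as higher, beside 6.5% and 5.25% of all genes. In the authors' deposited table of dog 2 it was 1 lower and 0 higher, beside 2.98% and 2%. In both tables the p-values compare 1 library with 1, not the conditions.

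Across both dogs, limma with the dog as a block called 0 of the 35 rows lower and 0 higher at an adjusted p under 0.05, beside 0.496% and 0.248% of all genes. At an unadjusted p under 0.05 it was 12 rows lower (9.96% of all genes) and 1 higher (5.95%). On reads recovered from the scaled counts, edgeR called 0 rows, with 9 lower and 1 higher at an unadjusted p under 0.05 (8.43% and 5.6% of all genes). limma-voom called 0, with 9 and 2 unadjusted (8.8% and 6.06%). DESeq2 gave an adjusted p to 30 of the 35 rows and called 0 of these, beside 1.14% and 0.658% of the 9424 genes to which it gave one. Unadjusted it was 8 lower and 1 higher (5.65% and 3.39% of all genes). The median fitted log2 fold was -0.39 over the 35 rows and -0.01 over all genes. With genes of a mean value of at least 10 alone, limma called 6 rows lower (OAS1, IFIT2, RNF213, IRF1, HERC5 and the MX row; 5.16% of the 8631 genes then tested) and OASL higher (2.44%). With a pseudocount of 5 in place of 1 it called 4 of these 6 lower (OAS1, RNF213, IRF1 and the MX row, beside 3.49% of all genes) and OASL higher (1.73%). IFIT2 and HERC5 had reached a mean of 10 through dog 2 alone. In dog 1 IFIT2 stood at 3.45 and 0.394 and HERC5 at 2.75 and 1.97 (control and exosome).

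A fit without 1 library has no block, so the difference between the dogs enters it. Without the exosome library of dog 1 the median log2 fold of the 35 rows was 0.052, and without that of dog 2 it was -0.73. Without the control of dog 1 it was -0.41, and without the control of dog 2 it was -0.18. In libraries made from many cells, fewer responding cells and less RNA per cell cannot be told apart.

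**Figure D2:**
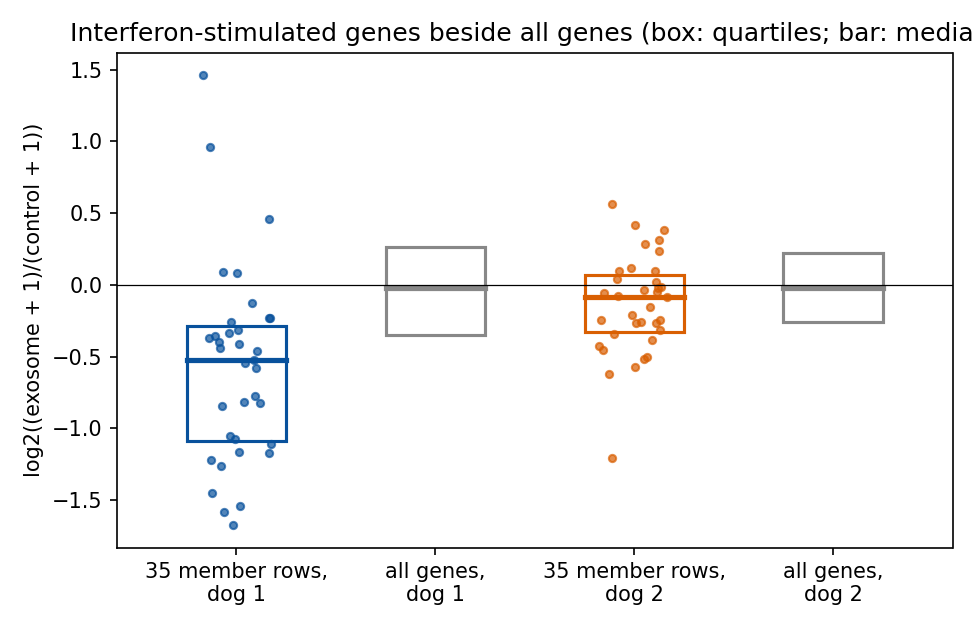
Log2((exosome + 1)/(control + 1)) within each dog for the 35 rows (points) and for all 11691 genes, with boxes at the quartiles and bars at the medians. The bar of the members lies at -0.52 in dog 1 and at -0.09 in dog 2, against -0.02 for all genes in both.

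Among the transcription factors, IRF1, which interferon gamma and type I interferon both induce, had 240.0 with PBS and 103 with exosomes in dog 1. In dog 2 it had 282 and 234. Both exosome values lay below both control values, and the log2 fold was -0.74 ± 0.27 (SE; adjusted p = 0.189 by limma). This SE is moderated by limma, which borrows most of it from other genes. STAT2, the STAT that serves mainly type I and type III interferons, stood at 161 and 136 in dog 1 and at 126 and 106 in dog 2, nearly the same ratio in each (adjusted p = 0.696 by limma). The row of IRF9, the DNA-binding partner of STAT2, was slightly higher with exosomes in each dog, at 157 and 166, then 142 and 185 (adjusted p = 0.711 by limma).

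The OAS family holds enzymes that make a short RNA messenger when they meet double-stranded RNA, and OASL, a relative that in human has lost that activity and assists RIG-I instead. OAS1 stood at 28.3 with PBS and 8.78 with exosomes in dog 1, and at 35.6 and 27.0 in dog 2. The exosome library of dog 1 was far below the other 3, the groups did not overlap, and the log2 fold was -0.99 ± 0.28 (adjusted p = 0.106 by limma). OAS2 was near the lower end of detection, at 2.35 and 0.493 in dog 1 (30 and 5 reads) and at 3.29 and 1.89 in dog 2 (31 and 24 reads). Its log2 fold was -0.87 ± 0.24 (adjusted p = 0.0947 by limma). OAS3 went opposite ways in the 2 dogs, at 109 and 63.6 in dog 1 and at 115 and 153 in dog 2. OASL alone of the measured family was higher in both dogs, with 145 and 399.9 in dog 1 and 120.5 and 149.5 in dog 2. Within dog 2 its log2 fold of 0.31 was below the 0.42 of OAS3. Both exosome values of OASL lay above both control values, by a wide margin only in dog 1, and its fitted log2 fold was 0.88 ± 0.28 (adjusted p = 0.137 by limma).

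IFIT proteins bind viral RNA and block its translation. IFIT2 had the smallest p of the 35 rows in the main limma fit. The smallest adjusted p was that of OASL by edgeR (0.262) and DESeq2 (0.0907), and that of HERC5 by limma-voom (0.192). IFIT2 stood at 3.45 and 0.394 in dog 1 (44 and 4 reads) and at 23.5 and 16.3 in dog 2 (221 and 207 reads), with -1.09 ± 0.28 as its log2 fold (adjusted p = 0.0776 by limma). The control of dog 1 lay below both libraries of dog 2, so the groups overlapped. IFIT3 had 29.3 and 15.9 in dog 1 and 51.5 and 49.8 in dog 2, and IFIT5 had 58.2 and 42.1, then 42.1 and 27.0. All 3 measured members of the family were lower with exosomes in both dogs, and none passed the test (adjusted p = 0.0776 to 0.434 by limma).

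ISG15 is a small protein that is attached to other proteins, in human chiefly by the ligase HERC5 and in mouse by HERC6, and is removed by USP18. ISG15 itself had few reads, with 14, 6, 4 and 14 reads in the control and exosome library of dog 1 and then of dog 2. HERC5 stood at 2.75 and 1.97 in dog 1 (35 and 20 reads) and at 34.3 and 14.3 in dog 2 (323 and 182 reads). It was the row with the lowest fold in dog 2, and its log2 fold was -0.77 ± 0.26 (adjusted p = 0.161 by limma). HERC6 had 43.9 and 86.4 in dog 1 and 31.2 and 33.5 in dog 2, a higher exosome value in each (log2 fold 0.53 ± 0.26, adjusted p = 0.347 by limma). HERC5 and HERC6 lie side by side in the dog genome, and with exosomes HERC5 was lower and HERC6 higher in both dogs. USP18, which also dampens signalling at the interferon receptor, stood at 15.5 and 11.8 in dog 1 and at 15.8 and 16.0 in dog 2.

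RNF213, a very large ubiquitin ligase, stood at 546 and 227 in dog 1 and at 715 and 574 in dog 2. It had 2305 to 7295 reads per library, and the exosome value was lower in each dog (log2 fold -0.79 ± 0.26, adjusted p = 0.159 by limma). The ligase TRIM25, which acts on RIG-I, stood at 37.0 and 25.4, then at 40.8 and 39.1 (adjusted p = 0.631 by limma).

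PARP9 and DTX3L form a complex with ubiquitin ligase activity, and in human they share a promoter. PARP9 stood at 61.8 and 26.8 in dog 1 and at 105 and 90.6 in dog 2 (log2 fold -0.69 ± 0.27, adjusted p = 0.223 by limma). DTX3L had 68.8 and 32.1, then 141 and 119 (adjusted p = 0.227 by limma). PARP14, an ADP-ribosyltransferase, had 38.5 and 17.4, then 81.4 and 80.7 (adjusted p = 0.35 by limma). In dog 1 the log2 folds of these 3 genes were close together, at -1.17, -1.07 and -1.11, and in dog 2 they were -0.21, -0.25 and -0.01.

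The 6 rows of sensors of viral nucleic acid had no common direction. DDX58, which encodes RIG-I, stood at 15.1 and 21.1 in dog 1 and at 19.3 and 21.1 in dog 2, higher with exosomes in each (adjusted p = 0.625 by limma). The row of IFIH1, which encodes the sensor MDA5, stood at 116 and 124 and then at 105 and 76.6, higher in dog 1 and lower in dog 2. DHX58, which encodes their relative LGP2, had 25.4 and 13.9, then 30.04 and 35.5. ZBP1, a sensor of left-handed double helices that can start necroptosis, had 7.06 and 1.78 in dog 1 (90 and 18 reads), and 5.94 and 6.13 in dog 2. Its log2 folds, -1.54 and 0.04, were the furthest apart among the 35 rows. EIF2AK2, the kinase PKR that halts translation, stood at 4.55 and 1.68 in dog 1 (58 and 17 reads) and at 2.55 and 1.97 in dog 2 (24 and 25 reads). Its groups did not overlap, and its log2 fold was -0.66 ± 0.25 (adjusted p = 0.227 by limma).

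Among antiviral effectors, the row of MX1 and MX2, GTPases that trap viral capsids and nucleoproteins, stood at 51.2 and 18.05 in dog 1 and at 86.2 and 77.3 in dog 2 (log2 fold -0.80 ± 0.29, adjusted p = 0.199 by limma). SAMD9L, a restriction factor that also limits cell growth, had nearly equal folds in the 2 dogs. It had 567 and 426 in dog 1 and 535 and 398 in dog 2, with log2 folds of -0.41 and -0.43 (adjusted p = 0.407 by limma). BST2, the protein tetherin that holds budding virus at the cell surface, stood at 35.1 and 32.05 in dog 1 and at 313 and 297 in dog 2. Its values differed between the dogs but hardly with exosomes. ISG20, an exonuclease, had 18.3 and 13.2, then 24.0 and 29.5.

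The remaining measured rows were IFI44, IFI44L, IFI35, XAF1, SP110 and PNPT1. All 6 were lower with exosomes in dog 1 and 5 in dog 2, with adjusted p = 0.414 to 0.886 by limma. SP110, a nuclear body protein, had 346 and 278 in dog 1 and 449 and 480 in dog 2, so its exosome value was lower in dog 1 and higher in dog 2. PNPT1, an exonuclease of mitochondria, had nearly equal log2 folds of -0.37 and -0.34.

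**Figure D3:**
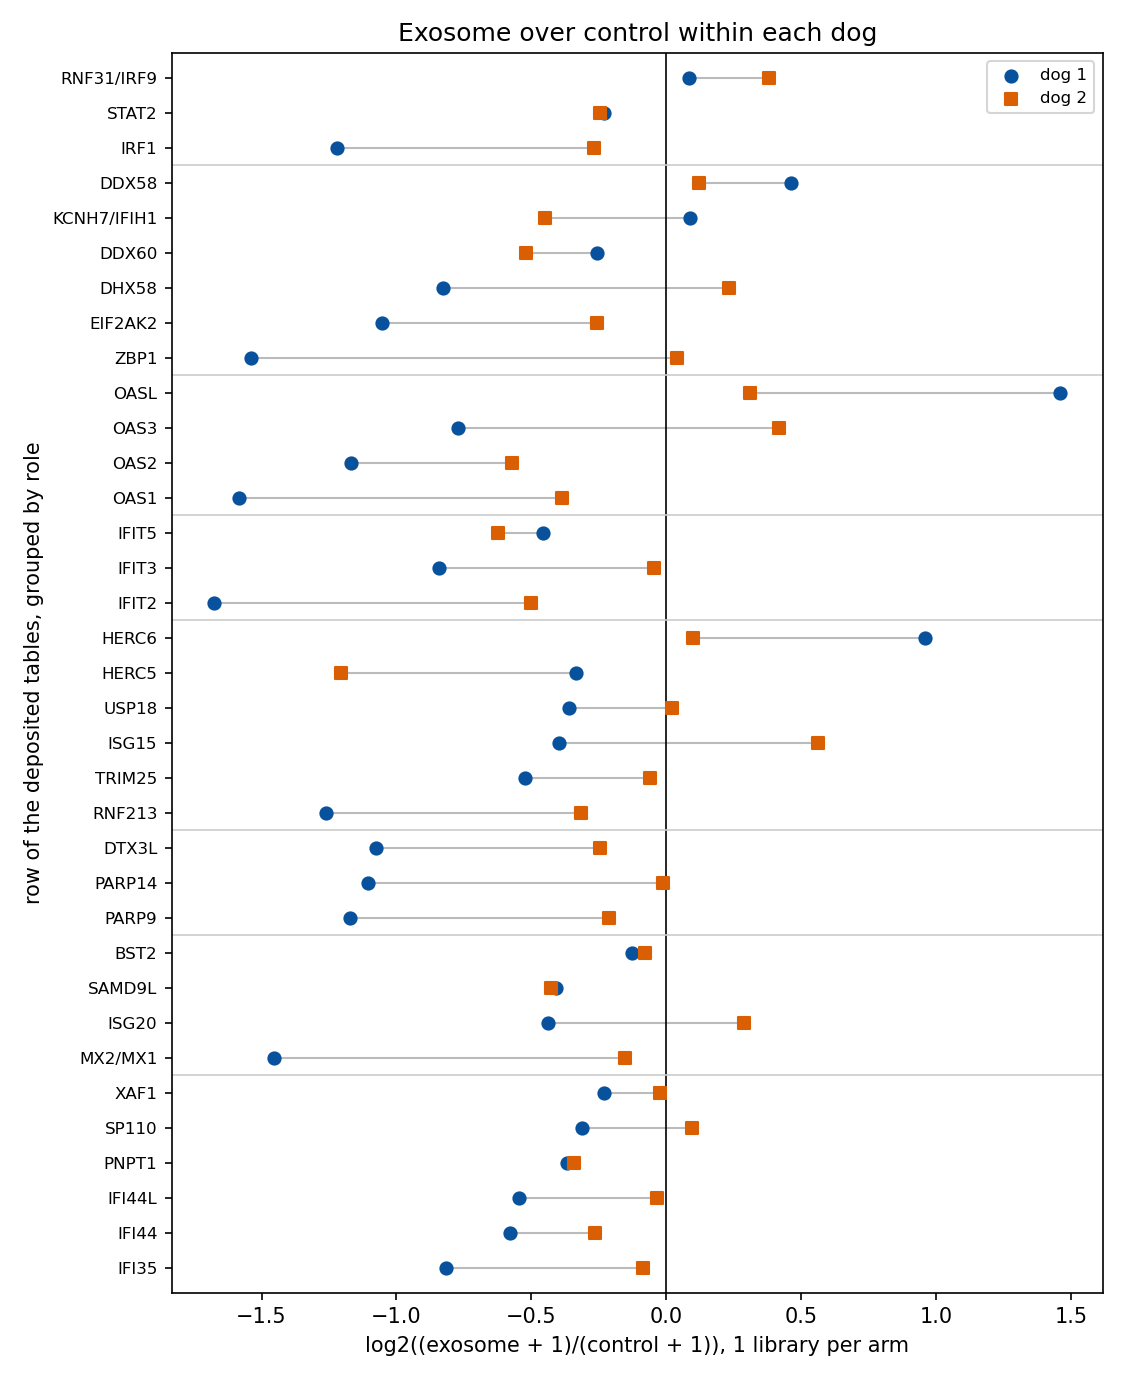
Log2((exosome + 1)/(control + 1)) of each row within dog 1 (circles) and dog 2 (squares), 1 library per arm, with rows grouped by role. Circles reach from -1.68 for IFIT2 to 1.46 for OASL, while squares reach from -1.20 for HERC5 to 0.56 for ISG15.

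Taken over all rows, both exosome values lay below both control values for 8 (14.3% of all genes) and above them for 3 (12.9%). The 8 were IRF1, OAS1, OAS2, IFIT5, EIF2AK2, SAMD9L, IFI44 and IFI35, and the 3 were OASL, DDX58 and the row of IRF9. The fold was lower in dog 1 than in dog 2 for 26 rows, against 49.5% of all genes. Whether the response differs between the dogs was not tested, since each dog gave 1 library per arm.

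More members passed the test between the dogs than with exosomes. That test sets a single animal against a single animal, with the control and exosome library of each as replicates. Its p-values do not measure the spread among dogs, and sex and any difference in time enter it. Both libraries of dog 2 lay above both of dog 1 for 19 rows (28.3% of all genes) and below them for 3 (28.5%), namely STAT2, HERC6 and the row of IFIH1. The dog term of the limma fit was read after the values had been seen. It was called for 13 rows as higher in dog 2 and for 2, OASL and HERC6, as lower, beside 12.7% of all genes in each direction. The term averages both arms, so the exosome library of dog 1 enters it. The control of dog 2 was at least 2-fold above that of dog 1 for 6 rows (8.96% of all genes). For the exosome libraries it was 17 rows (12.1%). BST2 had the largest difference, a log2 fold of dog 2 over dog 1 of 3.15 ± 0.23 (limma adjusted p = 6.68e-07). IFIT2 followed with 3.04 ± 0.28 (adjusted p = 5.41e-06 by limma), then HERC5 with 2.80 ± 0.26 (5.33e-06) and DDX60, a helicase, with 2.15 ± 0.23 (1.93e-05). DDX60 stood at 0.785 and 0.493 in dog 1 (10 and 5 reads) and at 7.64 and 5.03 in dog 2. The order of the dogs was not common to all rows. STAT2 and ISG15 had dog terms of -0.35 and -0.08 (adjusted p = 0.307 and 0.876 by limma), while DTX3L and PARP14 had 1.44 and 1.61 (0.00118 and 0.000873).

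**Figure D4:**
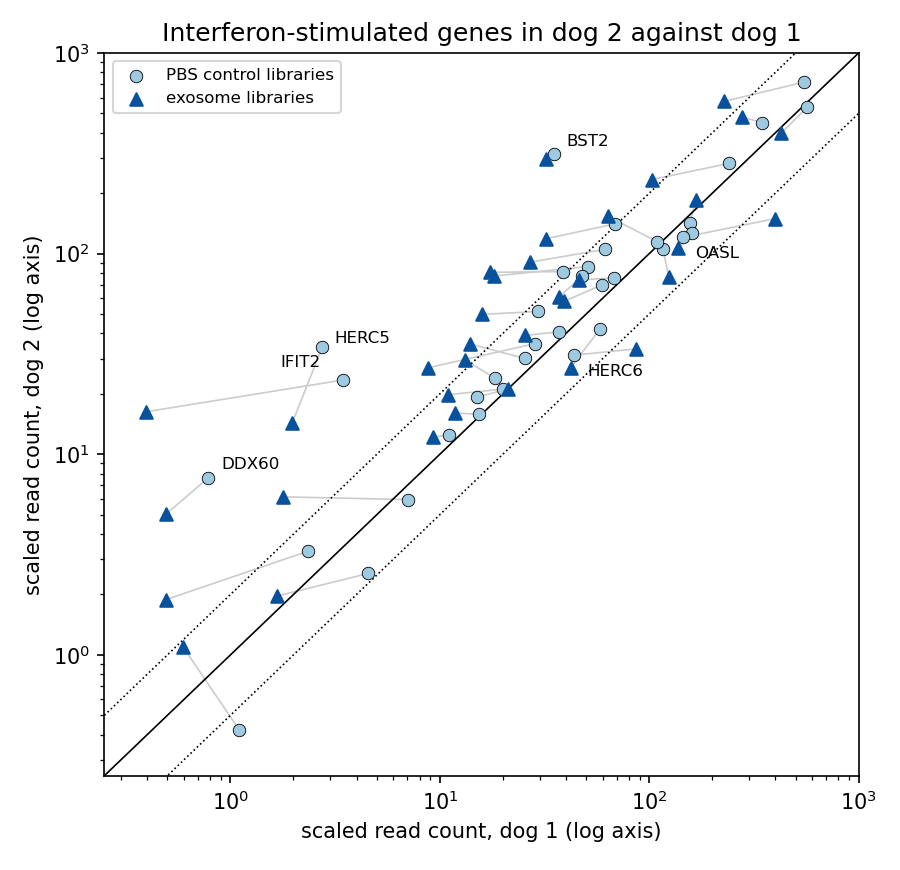
Scaled read count of the 35 rows in dog 2 against dog 1 (log axes), with circles for the control and triangles for the exosome libraries, a line joining those of a row, and names beside control points. The solid line marks equal values and the dotted lines 2-fold. BST2, HERC5, IFIT2 and DDX60 lie far above the solid line in both arms.

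Position in the genome grouped some of the members. By the gene order of the RefSeq assembly UU_Cfam_GSD_1.0, from which only names and order were taken, 40 of the 43 symbols were found, and 16 lay beside or near another member. OAS1, OAS3 and OAS2 followed each other, as did IFIT2 and IFIT3, IFI44 and IFI44L, and PARP9 and DTX3L, with PARP14 after 1 more gene. Neighbours shared their direction in both dogs in the PARP9 run, the IFIT2 run and the IFI44 run, but not in the OAS run, where OAS3 was higher in dog 2, nor for HERC5 and HERC6.

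The other genes of the pathway were read from lists. Of the receptor genes only IFNGR1, a chain of the interferon gamma receptor, and IL10RB, shared by type III interferon receptors, had a row. IFNAR1 and IFNAR2 had none under those symbols. IL10RB had 3.69 and 2.27, then 2.44 and 2.04. IFNGR1 stood at 457 and 256 in dog 1 and at 234 and 142 in dog 2, with -0.78 ± 0.23 as its log2 fold (adjusted p = 0.112 by limma). The type I and type III interferon genes on the list were IFNB1, IFNE, IFNK, IFNL1 and IFNL3, and none had a row under its symbol. Genes of interferon alpha were not on the list. IFNG, interferon gamma, had 8.16 and 1.68 in dog 1 (104 and 17 reads) and 35.98 and 20.8 in dog 2 (339 and 264 reads), with -1.27 ± 0.27 as its log2 fold (adjusted p = 0.0526 by limma). Both values of IFNG in dog 2 lay above both in dog 1, as they did for 19 of the 35 member rows and 28.3% of all genes. A link between IFNG and the members was not tested.

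None of the 5 kinase and STAT rows was called. JAK1 stood at 1205 and 1841 in dog 1 and at 1266 and 1615 in dog 2 (adjusted p = 0.337 by limma). TYK2, its partner kinase, had 217 and 152 in dog 1 and 138 and 151 in dog 2. Of 14 rows of sensors and adaptors, 0 were called by limma. At an unadjusted p under 0.05 by limma, 2 were lower and 0 higher (9.96% and 5.95% of all genes). STING1, the adaptor of DNA sensing, stood at 7.14 and 1.28 in dog 1 (91 and 13 reads) and at 5.20 and 3.62 in dog 2 (adjusted p = 0.0841 by limma). IRF8 had 23.1 and 9.86, then 18.4 and 13.8. The row that TLR9 shares with TWF2 had 38.5 and 24.6, then 54.1 and 42.2. Among 6 inhibitor rows SOCS1, which blocks JAK kinases, stood at 11.5 and 4.24 in dog 1 and at 8.07 and 7.86 in dog 2 (adjusted p = 0.295 by limma). The phosphatase gene PTPN6 had 140.2 and 76.7, then 148.5 and 148.8. PTPN2, another phosphatase gene, had 121 and 210.3, then 126 and 111.

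Of 41 further interferon-induced symbols outside the set, 28 had a row. Their median log2 folds were -0.25 in dog 1 and 0.05 in dog 2. In both dogs 11 rows were lower (32.5% of all genes) and 7 higher (27.8%). By limma 0 were called, with 4 lower and 2 higher at an unadjusted p under 0.05 (9.96% and 5.95% of all genes). RTP4 had 3.77 and 0.493 in dog 1 (48 and 5 reads) and 6.26 and 3.85 in dog 2 (adjusted p = 0.0675 by limma). HELZ2, a helicase, was higher with exosomes in both dogs, at 159 and 291 and then at 88.6 and 167 (adjusted p = 0.0756 by limma, 0.17 by edgeR, 0.135 by limma-voom and 0.0157 by DESeq2). TMEM140 was also higher in both, at 31.9 and 55.2, then at 18.2 and 27.9 (adjusted p = 0.16 by limma).

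On the list of genes that interferon gamma induces, 10 rows were measured, with median log2 folds of -0.39 in dog 1 and -0.03 in dog 2. CXCL10, a chemokine that draws T cells, was the only gene of all these lists called by limma (log2 fold -2.11 ± 0.30, adjusted p = 0.0117). Its adjusted p was 0.000112 by DESeq2 but 0.154 by edgeR and 0.13 by limma-voom, and limma with a pseudocount of 0.1 called 0 genes. It had 476 and 46 reads in dog 1 and 141 and 63 in dog 2. GBP6, a GTPase, stood at 77.0 and 40.7 in dog 1 and at 289 and 193 in dog 2 (adjusted p = 0.133 by limma). FAS, the death receptor, was higher in both dogs, at 53.9 and 98.8 and then at 85.2 and 115 (adjusted p = 0.2 by limma).

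Median log2 folds of the 8 T cell marker rows were -0.26 in dog 1 and -0.09 in dog 2, beside -0.52 and -0.09 for the 35 member rows. Markers of other cell types differed between libraries too, and their part in these values was not tested. Of 7 B cell symbols 4 had a row, with summed values of 908 and 1079 in the control and 859 and 1376 in the exosome libraries, nearly all from a row that CD79A shares with the ribosomal gene RPS19. The 4 NK cell rows summed to 733 and 441 in the control and 989 and 429 in the exosome libraries, and did not go one way. KLRD1, a receptor chain, was higher with exosomes in both dogs, at 213 and 666, then 85.02 and 124 (adjusted p = 0.0729 by limma and 0.0134 by DESeq2). KLRB1, NCR1 and NKG7 were lower in both. KLRB1 had 173 and 85.5, then 19.6 and 9.99 (adjusted p = 0.0648 by limma and 0.0233 by DESeq2). The 5 rows of the plasmacytoid dendritic cell list summed to 634 and 699 in the control and 1086 and 940.5 in the exosome libraries. Most of each sum came from the row of GZMH and GZMB, which cytotoxic T cells express too. That row and IL3RA, the latter with few reads, were the 2 that were higher with exosomes in both dogs. The other 3, IRF8, TCF4 and the row of TLR9, were lower in both.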

How the data were processed

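Messenger RNA of 4 libraries was measured, 1 control and 1 exosome library per dog. The submitters' processing notes name Trimmomatic 0.38, HISAT2 2.1.0 and featureCounts 1.6.0, with CanFam3.1 as the build, and say nothing of strand. Per the deposited log, 30951 genes were reduced to 11838, 89 and 58 outliers were dropped, and DEGseq set 1 library against 1 in each table. The values deposited per gene are signal values: read counts over a factor specific to the library. The authors also deposited a score (the mean of the 2 libraries), a log2 fold of exosome against control, and p-values that compare single libraries.

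Every value (100%) was a whole multiple of its column's smallest (tolerance 0.001), so reads could be recovered. TMM factors differed from the deposited ones by at most 1.08%, which allowed comparison across tables. edgeR had been planned for counts and limma for scaled values, so limma 3.58.1 (R 4.3.3) on log2(value + 1) was the main test. The dog was its block, with 1 residual and 11.4 prior degrees of freedom and Benjamini-Hochberg adjustment over 11691 genes. The pairing comes from the number in the titles, which goes with the sex of the animal and, per the series' text, counts healthy dogs. Libraries of a dog deviated together (correlation 0.818 over genes, the same for each dog by construction). That correlation does not tell dog, sex and time apart. Each dog gave 1 culture per arm. As alternatives, edgeR 4.0.16, limma-voom and DESeq2 1.42.0 took the recovered reads. The code was tested on simulated data.

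The members and lists were chosen with earlier results of these data known. Values in every library were to be given for called members, the 10 smallest p-values, the 4 highest mean values and the 4 folds that differed most between dogs. From other lists, called genes and the 3 smallest p-values were to be named. Further members with values were added after these had been seen. One gene of the pathway lists is not reported here.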

Additional observations from a re-analysis of the deposited data

How the results depend on the processing

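The direction of the members' median held in every fit with all 4 libraries. Without the replicate block limma called 0 members and 0 genes, and the median log2 fold of the members was -0.39, equal by construction. limma called 0 genes lower and 0 higher with a pseudocount of 0.1, with values scaled to recovered totals and when any library was left out, as did limma-voom and edgeR with TMM factors. With DESeq2 size factors edgeR called 7 genes lower and 7 higher, and DESeq2 called 107 and 62, with 0 of the 30 member rows that had an adjusted p among them, against 58 and 29 in the main fit. A pseudocount of 5 gave 408 genes lower and 202 higher, among them 4 members lower (OAS1, RNF213, IRF1 and the MX row) and 1 higher (OASL). Genes with a mean value of at least 10 gave 445 and 211, with 6 members lower and 1 higher, with 8631 genes tested. IFIT2 and HERC5, among these 6, reached that mean through dog 2 alone. The causes were not tested. Scaled to recovered totals, 18 rows in place of 23 were lower in both dogs, and the median in dog 2 was -0.01. Rows with 1 symbol only, a setting chosen after seeing the data, gave 22 of 32.

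Fits without 1 library drop the block, so the difference between dogs enters them. The median log2 fold of the members then ran from -0.73 to 0.052. Of 140 single values, 27 had the other sign and 0 were called. The ranges were -1.69 to 1.48 for BST2, -1.53 to 0.75 for DDX60, -0.94 to 0.35 for DHX58, -1.59 to 0.27 for DTX3L, -2.39 to 0.85 for HERC5, -0.14 to 1.20 for HERC6, -0.62 to 0.044 for IFI44L, -2.90 to 0.73 for IFIT2, -1.24 to 0.35 for IFIT3, -0.20 to 0.36 for ISG15, -0.63 to 0.47 for ISG20, -0.52 to 0.16 for the row of KCNH7 and IFIH1, -1.82 to 0.22 for that of MX2 and MX1, -0.81 to 0.45 for OAS3, -1.64 to 0.52 for PARP14, -1.55 to 0.17 for PARP9, -0.50 to 0.28 for SP110, -0.59 to 0.0083 for TRIM25, -0.37 to 0.035 for USP18 and -0.31 to 0.052 for XAF1. Depth limits ISG15, OAS2, DDX60, EIF2AK2, HERC5, ZBP1 and IFIT2, which had under 60 reads in at least 1 library.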
